A study of Sus scrofa with 16 samples.

Results

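The CREB and ATF transcription factors, proteins that bind DNA through a basic region and pair through a leucine zipper, were examined in the pituitary of pigs that differed in feed conversion. They were taken from a list of 10 gene symbols, CREB1, CREM, CREB3, CREB3L1, CREB3L2, ATF1, ATF2, ATF4, ATF6 and XBP1, which were looked up among the symbols that the authors' comparison table pairs with Ensembl identifiers. Of these, 9 were found among the 25880 genes of the count table, and all 9 passed the expression filter of edgeR. XBP1 (ENSSSCG00000030996) has a blank symbol in that table and was matched through a list of gene identifiers, so its values are given beside those of the 9 genes but not in the counts over them.

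Whole pituitaries of 16 Złotnicka White gilts, a native Polish breed, were sequenced, 8 with low feed conversion (LFC), which used less feed for their growth, and 8 with high feed conversion (HFC). The group of each pig was read from a label that gives low or high FCR under a tag named shear force. All gilts were female, unrelated and from different farms and were kept at 1 test station with the same feed and housing. They were slaughtered by body weight and not by age, although all carry the label day 180, so the groups are not matched for age, and the time a pig took to grow cannot be told apart from its feed conversion. In the study's measurements the HFC gilts also had thicker fat at several carcass points and less meat in the carcass. These traits cannot be told apart from feed conversion either. Neither group had received a treatment, and the libraries did not keep the strand. Since the whole gland was taken, both lobes and all their cell types contributed RNA, and fewer cells of a type cannot be told apart from less RNA per cell.

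CREB1, CREM and ATF1 bind the cAMP response element of promoters and are phosphorylated by protein kinase A, the enzyme through which hypothalamic peptides such as growth hormone releasing hormone and corticotropin releasing hormone act on pituitary cells. CREB3, CREB3L1, CREB3L2 and ATF6 are made as proteins of the endoplasmic reticulum (ER) membrane and become active once they are cut in the Golgi apparatus, ATF4 is translated when the general translation factor eIF2 is phosphorylated, and XBP1 becomes active when its mRNA is spliced by the ER stress sensor IRE1. In secretory cells these factors drive the genes of protein folding, transport and amino acid supply. Much of this control acts after transcription, and read counts per gene show neither cleavage, phosphorylation nor splicing.

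The libraries held 6010629 to 11794256 reads counted on genes, and pigs of 1 group differed with a common coefficient of variation of 0.249. Expression is given as CPM, the counts relative to library size after TMM scaling, and a positive log2 fold change means a higher level in the HFC pigs. None of the 13621 genes tested was called between the groups at an adjusted p ≤ 0.05 with a fold change ≥ 1.3 (0%, smallest adjusted p 0.372, quasi-likelihood test of edgeR, Benjamini-Hochberg adjustment), 1559 (11.4%) had an unadjusted p ≤ 0.05, limma voom called none (0%) and DESeq2 called 29 (0.153%). Libraries also differed in how expression ran with gene size. The slope of log2(CPM + 1) on the log2 span of a gene in the genome was lowest in LFC pig 6 (-0.103), LFC pig 4 (-0.102) and HFC pig 5 (-0.0848), apart from the next pig (-0.0404), so results are also given without these 3 pigs and with this span slope as a covariate.

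CREB3L1 and CREB3L2 were the members with higher levels in the HFC pigs, with mean fold changes of 1.58 and 1.35, while the remaining 7 genes had unadjusted p above 0.05. Of the 9 genes, 2 (22.2%) thus had an unadjusted p ≤ 0.05, against 11.4% of all genes tested and against 7.03% of all genes with such a p and a higher level in HFC. The study had reported both CREB3L1 and CREB3L2 as differentially expressed in these same pigs, so this count is not independent evidence. Its thresholds were an adjusted p ≤ 0.05 in DESeq2 and a fold change ≥ 1.3. Here neither gene passed the adjustment over all genes, in edgeR or in DESeq2 (adjusted p 0.133 for CREB3L1 and 0.280 for CREB3L2 in DESeq2). In 4 genes the log2 fold change was above 0 (as in 47.9% of all genes) and in 5 below 0, with a median of -0.05 beside a median of -0.01 over all genes tested. In none of the 9 did the groups separate fully, as was the case for 1 of the 13621 genes (0.00734%).

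**Figure D1:**
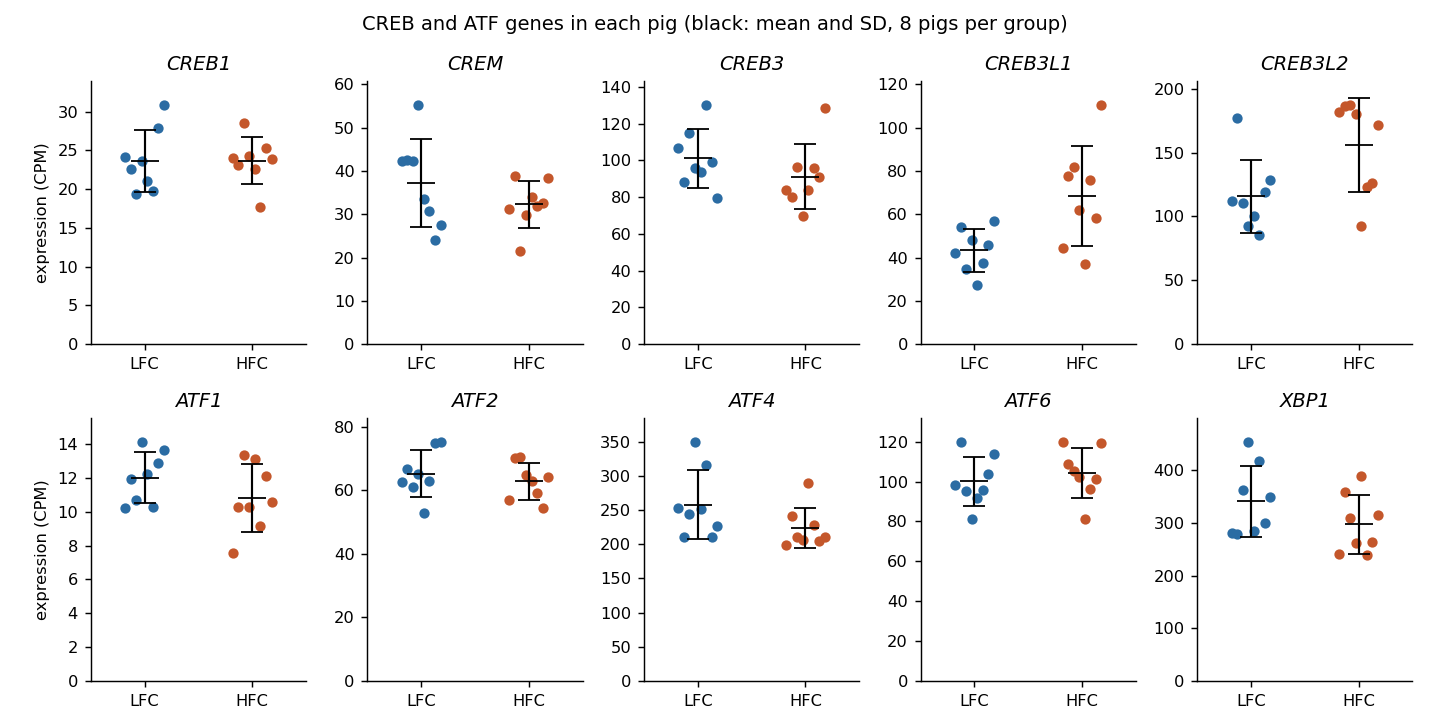
Expression in CPM (y axis, from 0) of the 9 CREB and ATF genes and XBP1 in each LFC and HFC pig (points), with the mean and SD of 8 pigs per group. For CREB3L1, 6 of 8 HFC pigs lie above the highest LFC pig, and for CREB3L2, 4 of 8 do. For XBP1, 4 HFC pigs lie below the lowest LFC pig, and for CREM, 4 LFC pigs lie above the highest HFC pig. In every gene shown the groups overlap.

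CREB1 (ENSSSCG00000034395, chromosome 15, 110705580 to 110772401 on Sscrofa11.1), the founding cAMP response element binding protein, was at the same mean level in both groups. It ranged from 19.3 CPM through a median of 23.1 to 30.8 CPM in the LFC pigs and from 17.7 through 23.9 to 28.5 CPM in the HFC pigs. The ranges covered each other almost entirely. Means were 23.6 ± 4.00 CPM and 23.6 ± 3.02 CPM (SD, n = 8 each), the log2 fold change was 0.00 (SE 0.11), and its 95% confidence interval from -0.23 to 0.23 corresponds to fold changes between 0.850 and 1.18. By exact permutation over the 12870 possible splits (two-sided), p was 0.951.

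CREM (ENSSSCG00000011106, chromosome 10, 57829543 to 57895765) makes activators as well as the short repressor ICER, which these counts per gene do not separate. Its levels were spread more widely in the LFC pigs, from 24.0 through a median of 37.9 to 55.3 CPM, than in the HFC pigs, from 21.6 through 32.2 to 38.9 CPM. The 4 highest values were all from LFC pigs, but the lowest 4 came from both groups. The mean was 37.3 ± 10.2 CPM in LFC and 32.3 ± 5.42 CPM in HFC (SD, n = 8), with a log2 fold change of -0.21 (SE 0.16, 95% confidence interval -0.53 to 0.12, edgeR unadjusted p 0.195, adjusted p 0.542).

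ATF1 (ENSSSCG00000016138, chromosome 5, 16628238 to 16680025), the closest relative of CREB1 and CREM, had the fewest reads of the members, 60 to 133 per pig, for which counting error alone is up to 12.9% of a value. It ranged from 10.2 through a median of 12.1 to 14.2 CPM in LFC and from 7.58 through 10.4 to 13.4 CPM in HFC. Only 2 HFC pigs were below the lowest LFC pig. The groups differed by a log2 fold change of -0.15 (SE 0.13, 95% confidence interval -0.42 to 0.11), and the exact permutation test gave p = 0.185.

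CREB3L1 (ENSSSCG00000013263, chromosome 2, 16185611 to 16220483), also known as OASIS, is an ER membrane factor that drives collagen and secretory genes in cells such as osteoblasts and fibroblasts. It ranged from 27.5 through a median of 43.9 to 56.7 CPM in the LFC pigs and from 37.2 through 68.8 to 110.4 CPM in the HFC pigs. All 8 LFC pigs were below the HFC median and 6 HFC pigs were above the highest LFC pig, while HFC pigs 1 (44.5 CPM) and 5 (37.2 CPM) lay within the LFC range. The mean was 43.3 ± 9.86 CPM in LFC and 68.4 ± 23.2 CPM in HFC (SD, n = 8), a log2 fold change of 0.66 (SE 0.19, 95% confidence interval 0.26 to 1.07). The unadjusted p was 0.00299 and the adjusted p over all genes 0.391 (edgeR), and the exact permutation test gave p = 0.0135.

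The difference in CREB3L1 kept its direction and an unadjusted p ≤ 0.05 whichever pig was left out, at log2 fold changes between 0.55 without HFC pig 8 and 0.77 without HFC pig 5, where the adjusted p was 0.0902. Without the 3 pigs of lowest span slope it was 0.75 (unadjusted p 0.00182, adjusted p 0.238), where 14.4% of all genes had such a p, and with the span slope as covariate 0.55 (unadjusted p 0.0163, adjusted p 0.929), where 4.77% did. DESeq2 gave 0.66 with an adjusted p of 0.133. The HFC pigs varied more among themselves (coefficient of variation 33.9%) than the LFC pigs (22.8%), and the difference of these spreads was not tested.

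CREB3L2 (ENSSSCG00000016520, chromosome 18, 11533183 to 11666127), also known as BBF2H7, is the close relative of CREB3L1 that drives transport vesicle genes in cartilage. It ranged from 85.5 through a median of 111.2 to 177.3 CPM in LFC and from 92.3 through 175.9 to 187.2 CPM in HFC. The HFC pigs fell into 5 pigs between 171.4 and 187.2 CPM and 3 pigs between 92.3 and 126.2 CPM. The latter and HFC pig 8, at 171.4 CPM, lay within the LFC range. LFC pig 2, at 177.3 CPM, was far above the next LFC pig at 128.3 CPM. The mean was 115.8 ± 28.5 CPM in LFC and 156.0 ± 36.7 CPM in HFC (SD, n = 8), a log2 fold change of 0.43 (SE 0.16, 95% confidence interval 0.09 to 0.77). The unadjusted p was 0.0163 and the adjusted p 0.413 (edgeR), and the exact permutation test gave p = 0.0348.

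With the span slope as covariate the log2 fold change of CREB3L2 was 0.18 with an unadjusted p of 0.0965. Without the 3 pigs of lowest span slope it was 0.41 (unadjusted p 0.0120, adjusted p 0.260), and with each pig left out it lay between 0.39 and 0.54, at an unadjusted p ≤ 0.05 in 16 of 16 fits.

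CREB3 (ENSSSCG00000005318, chromosome 1, 236450573 to 236456497), also called Luman, is the founding ER membrane member of this family. It ranged from 79.7 through a median of 97.6 to 130.1 CPM in LFC and from 69.6 through 87.3 to 128.6 CPM in HFC. The HFC pigs were mostly low, with 1 of 8 above the LFC median, but that pig, HFC pig 8, nearly reached the top of the LFC range. This gave a log2 fold change of -0.15 (SE 0.12, 95% confidence interval -0.40 to 0.10, exact permutation p = 0.219). The gene overlaps TLN1 over 373 bases and GBA2 over 1258 bases, and without strand the reads of overlapping genes cannot be told apart there; the r of CREB3 over 16 pigs was -0.37 with TLN1 and 0.08 with GBA2.

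ATF6 (ENSSSCG00000006346, chromosome 4, 88591281 to 88805299), the ER stress sensor that raises chaperone genes once it is cut, was level between the groups. It ranged from 81.4 through a median of 97.0 to 120.0 CPM in LFC and from 81.0 through 103.7 to 120.0 CPM in HFC, nearly the same range. Here the log2 fold change was 0.06 (SE 0.09, 95% confidence interval -0.14 to 0.26, exact permutation p = 0.515), and with the span slope as covariate it was -0.06 (unadjusted p 0.363).

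**Figure D2:**
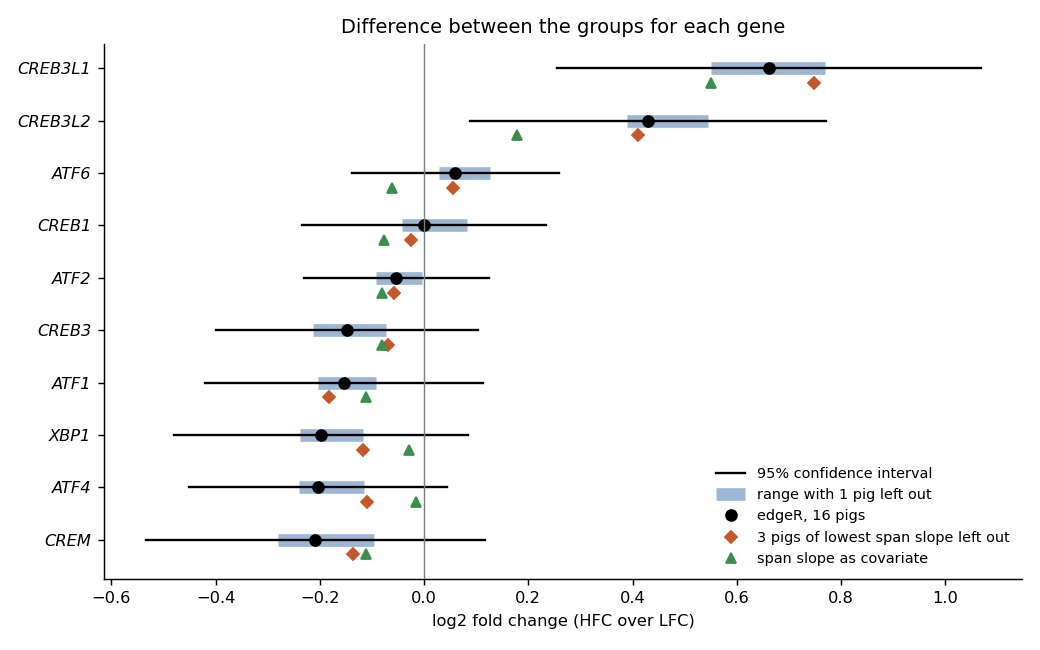
Log2 fold change of each gene (x axis, HFC over LFC) from edgeR over 16 pigs, with its 95% confidence interval (line), the range over the 16 fits with 1 pig left out (bar), and the values without the 3 pigs of lowest span slope (diamonds) and with span slope as covariate (triangles). The intervals of CREB3L1 and CREB3L2 lie above 0 and those of the other genes include it; with the covariate CREB3L2 moves from 0.43 to 0.18 and CREB3L1 from 0.66 to 0.55.

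Within each pig, the levels of the 4 ER membrane factors were also set against each other, which takes the scaling of a library out of the value. Ratios between genes depend on transcript length, so only their change between groups can be read. All 6 pairs are given with the p of an exact permutation test, which is not adjusted, and the pairs share genes. The log2 ratio of CREB3L1 to ATF6 averaged -1.23 ± 0.29 in LFC and -0.67 ± 0.44 in HFC (SD, n = 8), a difference of 0.56 (exact permutation p = 0.0118), with 5 HFC pigs above the highest LFC pig. That of CREB3L2 to ATF6 averaged 0.19 ± 0.20 and 0.55 ± 0.25, a difference of 0.36 (exact permutation p = 0.00730), with 4 HFC pigs above the highest LFC pig. The ratios of CREB3 differed by -0.78 against CREB3L1, -0.58 against CREB3L2 and -0.21 against ATF6 (exact permutation p = 0.00591, 0.0314 and 0.177). The last was smaller than its SD in either group (0.34 and 0.27). CREB3 by itself had a log2 fold change of -0.15 (edgeR unadjusted p 0.232). Between CREB3L1 and CREB3L2 the ratio differed by 0.20 (exact permutation p = 0.324), less than its SD in either group (0.31 and 0.45). Without the 3 pigs of lowest span slope the 6 differences kept their signs and lay between -0.83 and 0.68.

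**Figure D3:**
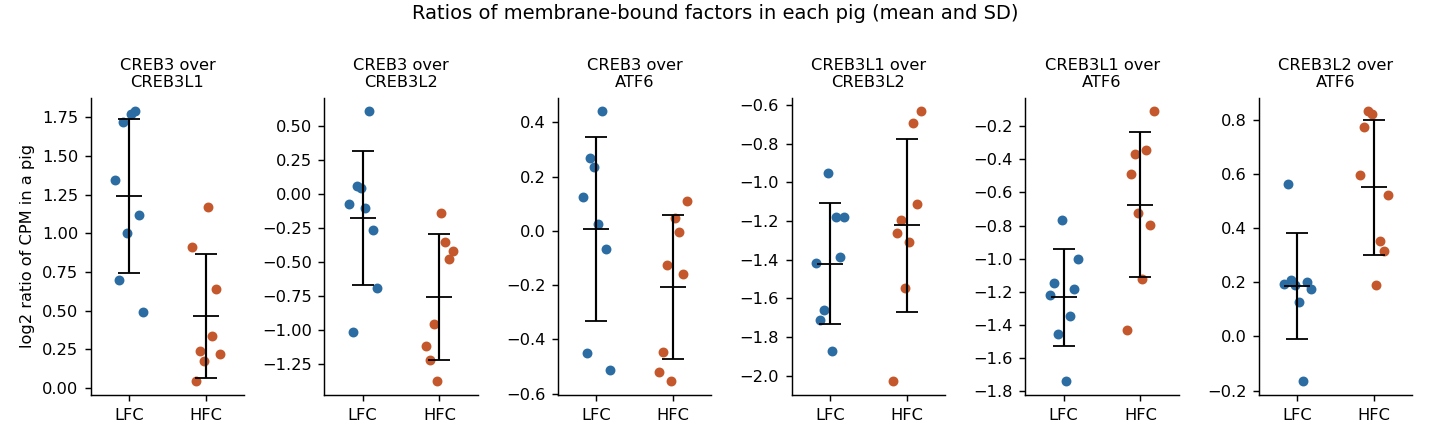
Log2 ratio of CPM between ER membrane factors within each pig (y axis, a scale of its own per panel), by group, with mean and SD of 8 pigs. The HFC pigs lie mostly lower for CREB3 over CREB3L1 (difference -0.78) and mostly higher for CREB3L1 over ATF6 (0.56) and CREB3L2 over ATF6 (0.36).

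ATF2 (ENSSSCG00000038076, chromosome 15, 80984162 to 81091532), a factor that stress kinases phosphorylate and that pairs with JUN, varied least of the members, with coefficients of variation of 11.4% in LFC and 9.22% in HFC. It ranged from 52.8 through a median of 64.2 to 75.4 CPM in LFC and from 54.4 through 63.5 to 70.4 CPM in HFC, and all HFC pigs lay within the LFC range. Its log2 fold change was -0.05 (SE 0.08, 95% confidence interval -0.23 to 0.12, exact permutation p = 0.514). It overlaps ATP5G3 over 1270 bases, with an r of 0.03 between the genes over 16 pigs.

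ATF4 (ENSSSCG00000000084, chromosome 5, 8738880 to 8745368), the main effector of the integrated stress response, ranged from 210.1 through a median of 247.9 to 350.4 CPM in LFC and from 199.4 through 211.2 to 289.4 CPM in HFC. The 3 highest pigs were LFC pigs 4 (350.4 CPM) and 6 (316.5 CPM) and HFC pig 5 (289.4 CPM), the same pigs that had the lowest span slopes. Between groups the log2 fold change was -0.20 (SE 0.12, 95% confidence interval -0.45 to 0.04, edgeR unadjusted p 0.103, exact permutation p = 0.117). It was -0.11 without these 3 pigs and -0.02 with the span slope as covariate (unadjusted p 0.161 and 0.808). Without HFC pig 5 alone it was -0.24 with an unadjusted p of 0.0408 and an adjusted p of 0.177, in a fit in which 25.7% of all genes had an unadjusted p ≤ 0.05.

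XBP1 (chromosome 14, 46008520 to 46016631), the factor that expands the secretory apparatus, ranged from 277.9 through a median of 324.1 to 454.0 CPM in LFC and from 239.5 through 285.9 to 388.2 CPM in HFC. LFC pigs 4 and 6 were again highest, and 4 HFC pigs lay below the lowest LFC pig. The mean was 340.7 ± 67.1 CPM in LFC and 297.1 ± 55.4 CPM in HFC (SD, n = 8), a log2 fold change of -0.20 (SE 0.13, 95% confidence interval -0.48 to 0.08, exact permutation p = 0.165). It was -0.12 without the 3 pigs of lowest span slope and -0.03 with the span slope as covariate.

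The members followed the span slope of the libraries to very different degrees. Over 16 pigs the Pearson's r of log2(CPM + 1) with the span slope was -0.96 for ATF4 and -0.78 for XBP1, which have short spans of 6489 and 8112 bases. It was 0.88 for CREB3L2 and 0.82 for ATF6, which have long spans of 132945 and 214019 bases. Span and r did not run together in every member, since CREB3, with the shortest span (5925 bases), had an r of -0.39, and ATF2, with a long one (107371 bases), had 0.12. For CREB3L1 (34873 bases) it was 0.48, and for CREB1 (66822 bases), CREM (66223 bases) and ATF1 (51788 bases) it was 0.41, -0.40 and -0.36. Such values were common, since 9.32% of all genes tested had an r of at least 0.8 and 9.27% an r of at most -0.8. Among the 13 other pigs r was -0.85 for ATF4, 0.82 for CREB3L2, 0.74 for ATF6, 0.41 for CREB3L1 and -0.37 for XBP1. The span slope itself ranged from -0.103 through a median of -0.0313 to 0.0146 in LFC and from -0.0848 through -0.000871 to 0.0435 in HFC (exact two-sided permutation p = 0.125 for the difference of means).

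**Figure D4:**
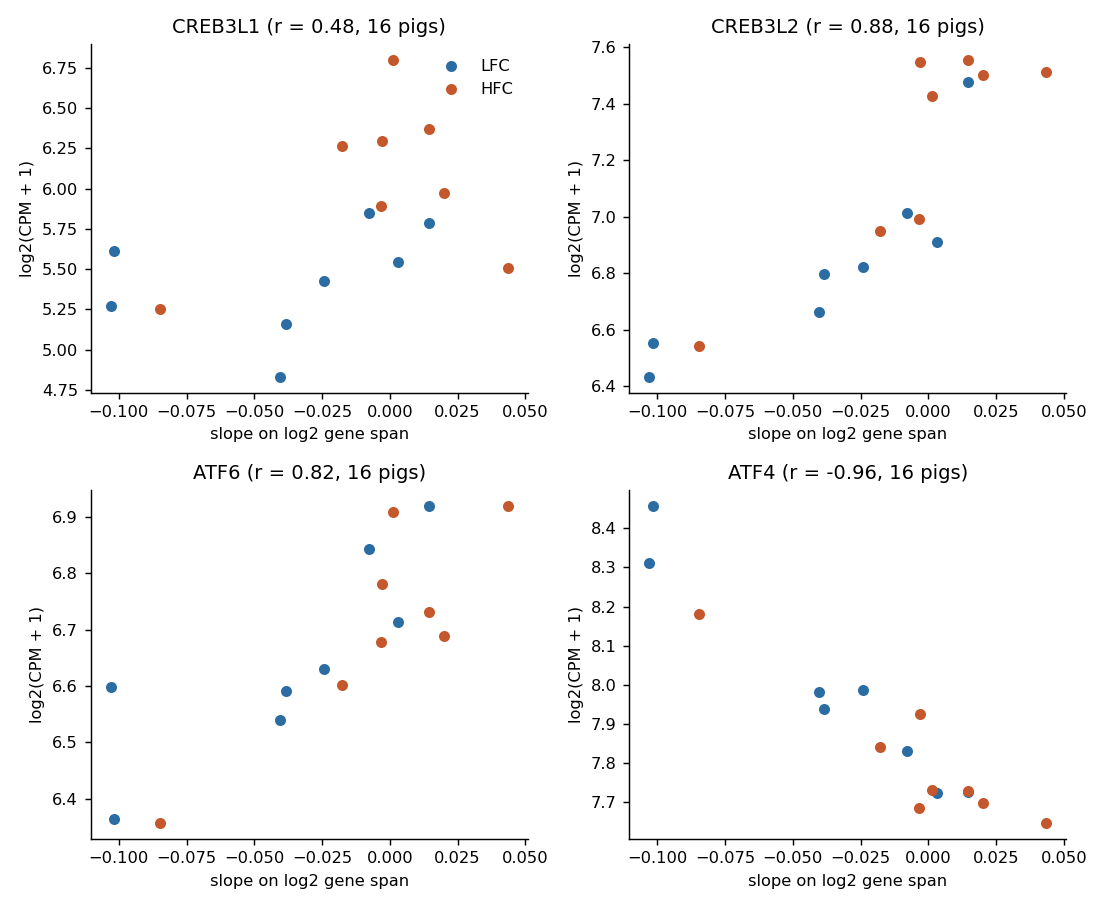
Log2(CPM + 1) of CREB3L1, CREB3L2, ATF6 and ATF4 (y axes) against the slope of expression on log2 gene span of each pig (x axis), with LFC pigs in blue and HFC pigs in orange. ATF4 declines along the slope (r = -0.96) and CREB3L2 and ATF6 climb (r = 0.88 and 0.82), while for CREB3L1 most HFC pigs lie above LFC pigs of like slope (r = 0.48 over all pigs).

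Between members, the r over 16 pigs is given as a description, since all pigs share the differences in library composition above. CREB3L2 and ATF6 varied together (r = 0.80, and 0.72 in the 13 other pigs), both opposite to ATF4 (-0.77 each, and -0.59 each in the 13 pigs). ATF4 and XBP1 had an r of 0.80, which was 0.43 in the 13 pigs. CREB3L1 and CREB3L2 had an r of 0.69 (0.65 in the 13 pigs), and 0.54 once each gene was centred on its group mean. Among the cAMP-responsive factors, CREB1 had an r of 0.47 with ATF1 and -0.44 with CREM. CREB1 and ATF2 had an r of 0.58.

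For each member the 2 genes with the highest r over 16 pigs were looked up among the other tested genes with a deposited symbol (9547, and 9548 for XBP1). CREB3L2 ran closest to UGGT1, the ER glycoprotein folding sensor (r = 0.97), and to OSBP, a sterol transfer protein (0.96), and these values were 0.97 and 0.93 in the 13 pigs. UGGT1 and OSBP each had an r of 0.87 with the span slope, close to the 0.88 of CREB3L2. XBP1 ran closest to ERLEC1, an ER lectin (0.96), and to YIPF3, a Golgi membrane protein (0.96), both at 0.93 in the 13 pigs, and each of them had an r of -0.78 with the span slope, as XBP1 did. The closest genes of ATF4 were COA3 and DFFA (both 0.96), which had an r of -0.93 and -0.95 with the span slope themselves. CREB3L1 ran closest to ZNF304 and KLHL13 (both 0.82), CREB3 to RAB26, a secretory granule GTPase (0.87), and PPID (0.78), and ATF6 to HERC3 among others (0.92). The closest genes were IBTK and ARID4B for CREB1 (both 0.88), SORD (0.81) and HOMER2 (0.74) for CREM, SLC35F5 (0.84) and CCDC160 (0.83) for ATF1, and CCDC117 (0.80) among others for ATF2. These genes are the highest of all that were searched, and their r is no test.

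Upstream and downstream of the factors, 8 lists with 128 genes were followed, of which 124 were tested. At an unadjusted p ≤ 0.05 there were 18 genes, read here against 7.03% of all genes with such a p and a higher level in HFC and 4.41% with a higher level in LFC. In edgeR none had an adjusted p ≤ 0.05, and the smallest was 0.372, while DESeq2 called PKIA and COL1A2. Over all genes tested, 14.4% had such a p without the 3 pigs of lowest span slope (7.69% higher in HFC and 6.66% higher in LFC), 4.77% with the span slope as covariate (2.73% and 2.04%), 9.98% in DESeq2 (6.1% higher in HFC) and 18.6% in limma voom.

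In the cAMP and protein kinase A cascade, 1 of 22 genes had such a p with a higher level in HFC and 1 with a higher level in LFC, and the median log2 fold change was -0.01. PKIA, which makes a small inhibitor of protein kinase A, had 79.0 ± 10.5 CPM in LFC and 58.6 ± 9.49 CPM in HFC (log2 fold change -0.43, SE 0.11, unadjusted p 0.000626). It kept its direction without the 3 pigs of lowest span slope (-0.46) and with the span slope as covariate (-0.32, unadjusted p 0.00117). ADCY6, an adenylate cyclase, was at 35.9 ± 5.27 CPM in LFC and 42.3 ± 6.51 CPM in HFC (log2 fold change 0.24, unadjusted p 0.0426, and 0.11 with the covariate, unadjusted p 0.256). PKIB, a related inhibitor, had a log2 fold change of -0.46 with an unadjusted p of 0.0516. It had -0.36 without the 3 pigs of lowest span slope (unadjusted p 0.0280) and -0.14 with the covariate (unadjusted p 0.363). ADCY6 kept an unadjusted p ≤ 0.05 in 6 of the 16 fits with 1 pig left out.

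Of the coactivators and kinases of CREB, 5 of 14 had an unadjusted p ≤ 0.05 with a higher level in HFC (35.7%, against 7.03% of all genes). None had such a p with a higher level in LFC, and the median log2 fold change was 0.25. The summed CPM of this list had an r of 0.94 with the span slope, and with the span slope as covariate 2 genes were higher in HFC and 1 in LFC at such a p. RPS6KA5, a kinase that phosphorylates CREB1 (MSK1), had a log2 fold change of 0.28 (SE 0.10, unadjusted p 0.00860), which was 0.26 with the covariate. EP300, a histone acetyltransferase that CREB recruits, had 0.52 (unadjusted p 0.0124), and SIK2, a kinase that keeps CRTC coactivators out of the nucleus, had 0.47 (unadjusted p 0.0232). With the covariate these were 0.21 and 0.14 (unadjusted p 0.0190 and 0.215), and without HFC pig 1 SIK2 had 0.36 with an unadjusted p of 0.0640. CREBBP, the acetyltransferase paired with EP300, had 0.53, and 0.16 with the covariate (unadjusted p 0.0262 and 0.154). The study had singled out EP300 and CREBBP in these pigs, so they are no independent evidence of the direction of the list.

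Of the early target genes of CREB, which follow cAMP within minutes to hours in many cells, 11 of 14 were tested and none had an unadjusted p ≤ 0.05 in edgeR, and none in DESeq2 or limma voom. With the span slope as covariate 1 had such a p, PPARGC1A, a coactivator of mitochondrial genes (-0.35, unadjusted p 0.0264), named after its values were seen. The median log2 fold change was -0.10. The clock gene PER1 had 0.38 (SE 0.20, unadjusted p 0.0809, and 0.15 with the covariate), BDNF, a neurotrophin, had -0.42 (SE 0.31, unadjusted p 0.194), and DUSP1, a phosphatase of MAP kinases, had 0.23 (SE 0.19, unadjusted p 0.236).

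Among the sensors and regulators of ER stress, 10 of 11 were tested, and 1 had such a p, with a higher level in HFC. This was EIF2AK4 (GCN2), the kinase that senses missing amino acids, with a log2 fold change of 0.33 (SE 0.12, unadjusted p 0.0111), and 0.22 with the span slope as covariate (unadjusted p 0.0706). WFS1, an ER membrane protein, had 0.31 (unadjusted p 0.111, and 0.084 with the covariate), and PPP1R15A, which directs a phosphatase to eIF2, had -0.13 (unadjusted p 0.135). The median of the list was -0.01.

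Of the 25 target genes of ATF6 and XBP1, 20 had a log2 fold change above 0, where 47.9% of all genes did. An unadjusted p ≤ 0.05 was held by 5, all with a higher level in HFC (20%, against 7.03% of all genes). The median was 0.16, and 0.10 with the span slope as covariate. The summed CPM of this list had an r of 0.56 with the span slope. SYVN1, the ubiquitin ligase of ER-associated degradation, had 38.5 ± 9.56 CPM in LFC and 56.6 ± 13.8 CPM in HFC (log2 fold change 0.55, SE 0.17, unadjusted p 0.00463). DERL3, of the channel through which misfolded proteins leave the ER, had 6.44 ± 1.88 CPM and 10.1 ± 4.15 CPM (0.64, unadjusted p 0.0103), and PDIA6, a disulfide isomerase, had 0.37 (unadjusted p 0.0153). The others were the chaperone HYOU1 (0.50, unadjusted p 0.0195) and the isomerase PDIA4 (0.23, unadjusted p 0.0324), named after their values were seen. Such a p was reached by 6 genes without the 3 pigs of lowest span slope, by 9 genes in DESeq2, by 10 genes in limma voom and by 2 genes, SYVN1 and DERL3, with the span slope as covariate, in each case with a higher level in HFC. The study had listed HYOU1 from these same pigs, so it is not independent evidence of the direction of the list. The levels of ATF6 and XBP1 themselves differed by 0.06 and -0.20, as given above.

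Of the 22 target genes of ATF4, 1 had an unadjusted p ≤ 0.05, ALDH18A1, an enzyme of proline synthesis (log2 fold change 0.27, SE 0.11, unadjusted p 0.0290), and the median was 0.04. With the span slope as covariate ALDH18A1 had 0.13 (unadjusted p 0.161), and its p was above 0.05 without LFC pig 5, HFC pig 3 or HFC pig 4 (log2 fold changes 0.25, 0.22 and 0.25). DDIT3 (CHOP), a factor of prolonged ER stress, had -0.28 (unadjusted p 0.0830). It had -0.25 without the 3 pigs of lowest span slope (unadjusted p 0.00843) and -0.05 with the span slope as covariate (unadjusted p 0.530). SLC7A5, an amino acid transporter, had 0.28 (unadjusted p 0.0942), which was 0.44 without the 3 pigs of lowest span slope (unadjusted p 0.0146) and 0.15 without HFC pig 3 (unadjusted p 0.278).

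Of the 10 target genes of the CREB3 family, 3 had such a p, all with a higher level in HFC (30%, against 7.03% of all genes). The log2 fold change was above 0 in 8 of them and below 0 in 2. The median was 0.24, and 0.10 with the span slope as covariate. COL1A2, a chain of type I collagen, had 104.0 ± 30.5 CPM in LFC and 192.8 ± 45.4 CPM in HFC (log2 fold change 0.89, SE 0.19, unadjusted p 0.000147), and 0.61 with the span slope as covariate. COL1A1, the other chain, had 0.36 with an unadjusted p of 0.308, -0.06 with the covariate, 0.045 without HFC pig 1 and 0.55 without LFC pig 7. GOLGB1, a Golgi tether, had 0.55 (unadjusted p 0.0161), and MIA3, which loads collagen at ER exit sites, had 0.47 (unadjusted p 0.0174). With the covariate these were 0.20 and 0.18 (unadjusted p 0.0390 and 0.0351), and without the 3 pigs of lowest span slope 3 genes were higher in HFC and 1 in LFC at such a p. Both collagen genes were named by the study from these pigs, so their direction is not independent evidence.

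Of 13 further genes of the CREB and ATF family, 1 had such a p, ATF7, a close relative of ATF2 (log2 fold change 0.44, SE 0.18, unadjusted p 0.0249), and 0.19 with the span slope as covariate (unadjusted p 0.135). Without HFC pig 4, ATF7 had 0.37 with an unadjusted p of 0.0567. CREBL2 had -0.26 (unadjusted p 0.115), -0.21 without the 3 pigs of lowest span slope (unadjusted p 0.0492) and -0.035 with the covariate. DDIT3, which also belongs to the family, is given above. The median was -0.01.

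**Figure D5:**
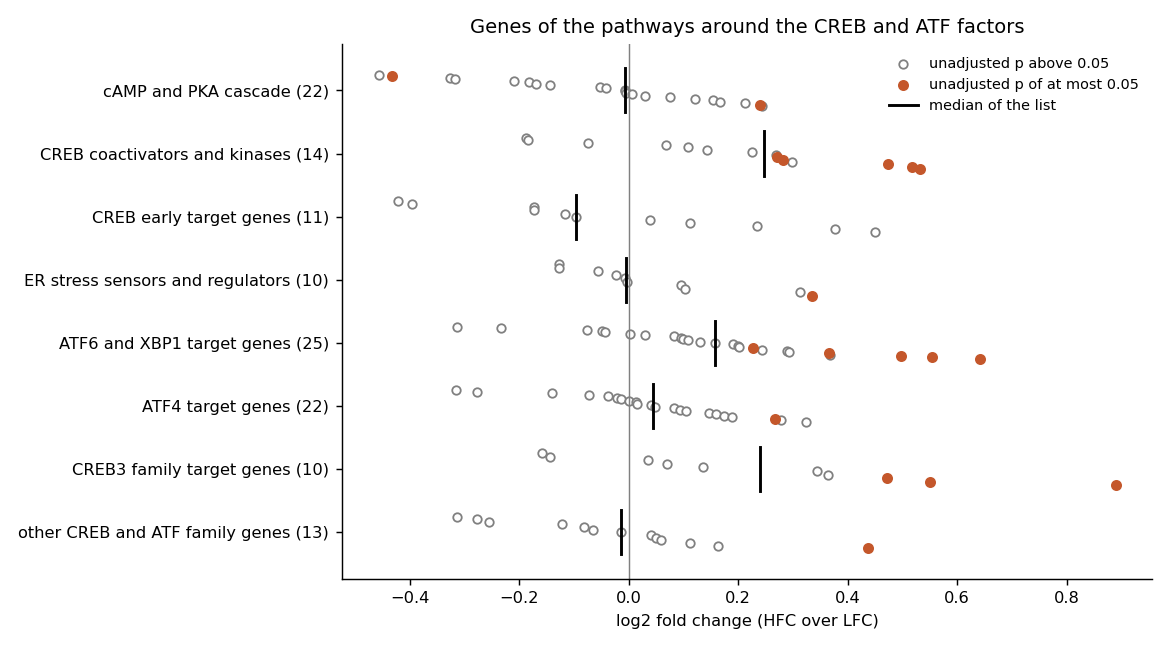
Log2 fold change (x axis, HFC over LFC) of each tested gene of the 8 lists (number tested in brackets), with unadjusted p ≤ 0.05 filled and the median of each list as a bar. The filled points of the coactivator, ATF6 and XBP1 target and CREB3 family target lists lie to the right of 0, and no point passed adjustment over all genes in edgeR.

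Markers of the cell types of the gland were present in both groups, and no marker with a row in the table was at 0 in every pig. Of the markers looked for, LHB, PITX1, S100B, SOX2, CLDN5 and ITGAM had no named row. The glial genes MOG, MAG, OLIG2 and NTSR2 did not pass the expression filter. The folliculostellate genes tested were thus ALDH1A1, ANXA1 and CDH1. Of 11 tested hormone and lineage genes of the anterior lobe, PRL was higher in HFC, and POMC, TBX19 and CGA were higher in LFC at an unadjusted p ≤ 0.05. Such a p was held by 36.4% of this list and by 11.4% of all genes tested. With the span slope as covariate CGA had -0.35 (unadjusted p 0.144), and PRL, POMC and TBX19 kept such a p. The study had named PRL, POMC and CGA from these pigs, so they are not independent evidence. Of 8 fibroblast genes, 1 had such a p, COL1A2, and their summed level ran from 391.5 through a median of 543.9 to 792.6 CPM in LFC and from 479.9 through 693.1 to 1238 CPM in HFC. Of 7 tested endothelial genes, VWF (log2 fold change 0.78, unadjusted p 0.0126) and CDH5 (0.43, unadjusted p 0.0436) were higher in HFC. With the span slope as covariate these were 0.39 and 0.24 (unadjusted p 0.113 and 0.225). CDH5 had been listed by the study from these pigs, so it is not independent evidence. The endothelial sums ran from 157.3 to 213.1 CPM in LFC and from 121.0 to 302.9 CPM in HFC. None of 5 glial genes of the posterior lobe, 3 folliculostellate and 7 macrophage genes had such a p in edgeR, while 2 of the glial genes did in DESeq2 and 1 folliculostellate and 3 macrophage genes did in limma voom, all with a higher level in LFC. The glial sum ran from 140.1 to 6052 CPM in LFC and from 125.2 to 3351 CPM in HFC. The part of these cells in the levels of CREB3L1 and CREB3L2 was not tested.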

How the data were processed

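RNA of 16 whole pituitaries was sequenced by the authors, 8 LFC and 8 HFC. The reads were trimmed with Flexbar and aligned to the Sscrofa11.1 assembly and its Ensembl genes, and the submitters' processing notes name CASAVA 1.8.2, FastQC, STAR, RSEM and DESeq2. The authors deposited whole-number counts of reads per gene and pig without normalization, which may be rounded estimates, and a comparison table. From the latter only symbols and coordinates were used, while its group signals, ratios, log2 values and p-values were not.

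Counts were scaled by TMM, filtered by group (13621 genes) and fitted in edgeR 4.0.16 (R 4.3.3), by quasi-likelihood tests with the group alone and Benjamini-Hochberg adjustment. Standard errors came from the F statistic. Single genes were compared by exact permutation of log2(CPM + 1), and ratios of genes by exact permutation of the log2 ratio, in Python 3.11.15 with numpy 2.4.6, scipy 1.17.1 and pandas 2.3.3. The span slope was fitted over 10890 tested genes with deposited coordinates. Pairs of libraries of a group differed by more than sampling noise (chi-square per degree of freedom 11.4 to 85.9). The edgeR fit was also run on simulated counts with known changes. These held no differences in span slope between libraries, so they do not test its part, and the outcome is not reported here. Alternatives were DESeq2 1.42.0, limma voom with quality weights (3.58.1), RLE, upper-quartile and total library scaling, other filters, thresholds and spread estimates, a replicate block, the span slope as covariate, and each pig left out. Leaving out the 3 pigs of lowest span slope was chosen after seeing the data.

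The members, lists and tests were chosen with earlier results of these data known. Named genes were every member, the 3 genes of each list with the smallest unadjusted p, the 2 genes most like each member (some are not reported here), and POMC, PRL, COL1A1, COL1A2, EP300 and CREBBP; HYOU1, PDIA4, PPARGC1A, TBX19, CGA, VWF and CDH5 were named after their values were seen. Genes without a deposited symbol were named by identifier (5875) or position (323). Sequences and transcript lengths were not used here.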

Additional observations from a re-analysis of the deposited data

Results flagged for a closer look

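The highest or lowest pig of each group was compared with the others by Dixon's ratio of gap to range for the members, XBP1, the 3 genes of each list with the smallest p and COL1A1, in 68 groups of 8 pigs, and 7 stood apart, where chance gives about 1 in 20. CREB3 was at 128.6 CPM in HFC pig 8, with the next HFC pig at 96.6 CPM. CREB3L2 was at 177.3 CPM in LFC pig 2, with the next LFC pig at 128.3 CPM. HFC pig 5 stood above the other HFC pigs in 4 genes, at 80.0 CPM for PKIA (next 59.9 CPM), 200.7 CPM for PKIB (next 128.7 CPM), 62.9 CPM for DDIT3 (next 37.1 CPM) and 164.2 CPM for CREBL2 (next 113.1 CPM). DERL3 was at 19.8 CPM in HFC pig 2, with the next HFC pig at 10.4 CPM. HFC pig 5 had the fewest reads (6010629) and the lowest span slope of the HFC pigs, and the part of these in its values was not tested.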

How the results depend on the processing

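The count of genes called was 0 in edgeR under every scaling, filter, threshold and spread estimate tried, in limma voom and with each pig left out (lowest 0, highest 0), and 29 in DESeq2. Of the 9 members, 2 had an unadjusted p ≤ 0.05 in every alternative except the span slope as covariate, with 1 (CREB3L1), and the fits with 1 pig left out, which gave 2 to 3, the 3 without HFC pig 5. The list genes with such a p numbered 18 in the main fit, 10 with the covariate, 34 in limma voom with quality weights and 13 to 39 with 1 pig left out (39 without HFC pig 5). Over all genes tested, such a p was held by 11.4% in the main fit, 4.77% with the covariate, 18.6% in limma voom and 25.7% without HFC pig 5. Without HFC pig 4, which gave the 13 list genes, 989 of 13676 genes had it. The log2 fold change of CREB1, near 0, turned to -0.015 with upper-quartile scaling, -0.077 with the covariate and -0.025 without the 3 pigs of lowest span slope, and lay between -0.043 and 0.082 with 1 pig left out. With the covariate, ATF6 turned to -0.062 and COL1A1 to -0.057. In DESeq2, PKIA (-0.43) and COL1A2 (0.89) were called. The cause of these changes was not tested. A pseudocount of 0.1 changed no exact test. Same-numbered pigs did not vary together (r of their deviations -0.34 to 0.37), and with the replicate number as a block 2 members, 22 list genes and no gene overall were past the same thresholds, with log2 fold changes of 0.62 for CREB3L1 and 0.42 for CREB3L2. In the fit with the block, 1404 of 13621 genes had an unadjusted p ≤ 0.05. Depth limits ATF1 most among the members.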
